A study of Homo sapiens with 8 samples.

Results

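The genes described here carry a cell through mitosis: 53 genes for mitotic cyclins and kinases, the centromere and spindle checkpoint, the spindle and cytokinesis, and condensin, the lamina and mitotic transcription factors. They were chosen by symbol from the annotation of the array, in 4 classes. The selection rule used no measured value, but the list was drawn up with earlier results of these data known. Of the 53 genes, 52 had a usable value, out of 17969 genes tested in all, and they were covered by 95 of the 42142 array features tested. UBE2C had no feature under its symbol and was not analysed here.

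Caco-2 is a human colorectal adenocarcinoma cell line that forms an enterocyte-like monolayer when it is left to grow past confluence. Monolayers grown for 18 days were exposed for 10 hours either to Lactobacillus plantarum MB452, a probiotic bacterium suspended in culture medium at an optical density (600 nm) of 0.9 (MB452 pools A and B), or to control medium (control pools A and B). Each pool combined RNA from 3 of the 12 wells and was hybridised to its own slide in Cy5, against a Cy3 reference made from all 12 wells, and each slide was scanned at a high and a low photomultiplier voltage. The values are log ratios of a pool to that reference, read as log2. A positive value means more signal in the pool than in the reference, and a difference between groups is MB452 minus control. Pool values are given as A and then B.

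With 2 pools of wells of 1 cell line in each group, the p-values measure the spread between these pools only. All wells were of 1 differentiation stage and 1 exposure time. In RNA from whole wells, fewer cycling cells and less mRNA in each cell cannot be told apart.

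Entry into mitosis is driven by cyclin B1 bound to CDK1. The spindle checkpoint, built on kinetochores that sit on CENPA chromatin, then holds back the anaphase-promoting complex until every chromosome is attached. Condensins compact the chromosomes while the lamina, with lamin B1 as a main component, is dismantled and later rebuilt. Most of these genes are transcribed late in the cell cycle and are quiet in arrested or terminally differentiated cells, through CCAAT boxes bound by NF-Y and the cell cycle genes homology region (CHR) bound by the DREAM complex in arrest and by B-MYB (MYBL2) and FOXM1 in cycling cells.

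Promoter windows show how many of the genes carry these letters. RefSeq windows (GRCh38.p14) from 250 bases before to 50 bases after a start were found for 45 of the 52 genes, in 58 windows. No window was listed for AURKA, BIRC5, BUB3, FOXM1, RACGAP1, TPX2 and TTK. The CHR letters searched were TTTGAA and TTCGAA, and the NF-Y letters were CCAAT, each on both strands. The CHR letters were in 37 of the 58 windows (63.8%), against 16.4% of all 35116 RefSeq windows of this length. By gene, 34 of 45 (75.6%) had a window with them, against 17.3% of the 14183 tested genes with a window. CCAAT was found for 35 of 45 genes (77.8%), against 42.6%, and both together for 27 of 45 (60%), against 7.23%. A CHR match between 60 bases before and 50 bases after the start was found for 29 of 45 (64.4%), against 5.56%. The E2F letters TTTCGCGC and TTTGGCGC, on both strands, were found for 2 of 45 genes (4.44%), against 2.06%. The 6 windows below belong to the genes with the largest lower expression after MB452 among those with a window, and are printed so that the different arrangements can be compared. They run 5′ to 3′ on the strand of the gene, with CHR and CCAAT letters (or their reverse complements) in capitals.
LMNB1 (chr5:126776886-126777185, plus strand): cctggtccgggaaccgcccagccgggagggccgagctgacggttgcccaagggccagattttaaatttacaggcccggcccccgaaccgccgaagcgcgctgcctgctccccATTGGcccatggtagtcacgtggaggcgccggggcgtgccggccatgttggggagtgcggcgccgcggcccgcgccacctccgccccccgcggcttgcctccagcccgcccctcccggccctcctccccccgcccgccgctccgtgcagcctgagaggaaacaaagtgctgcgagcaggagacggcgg
CKS1B (chr1:154974431-154974730, plus strand): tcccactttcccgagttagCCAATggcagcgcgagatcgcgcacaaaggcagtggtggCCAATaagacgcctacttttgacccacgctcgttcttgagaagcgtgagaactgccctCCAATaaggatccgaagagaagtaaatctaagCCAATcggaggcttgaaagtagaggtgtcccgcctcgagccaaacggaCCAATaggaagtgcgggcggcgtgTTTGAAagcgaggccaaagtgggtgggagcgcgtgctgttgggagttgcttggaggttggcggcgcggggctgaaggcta
SPC25 (chr2:168890381-168890680, minus strand): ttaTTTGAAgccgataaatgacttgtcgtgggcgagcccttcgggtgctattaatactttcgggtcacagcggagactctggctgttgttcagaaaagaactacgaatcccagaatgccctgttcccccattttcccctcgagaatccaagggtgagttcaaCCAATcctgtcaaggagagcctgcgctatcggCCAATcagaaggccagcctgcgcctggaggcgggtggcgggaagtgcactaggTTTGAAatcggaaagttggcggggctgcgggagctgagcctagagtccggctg
MAD2L1 (chr4:120066799-120067098, minus strand): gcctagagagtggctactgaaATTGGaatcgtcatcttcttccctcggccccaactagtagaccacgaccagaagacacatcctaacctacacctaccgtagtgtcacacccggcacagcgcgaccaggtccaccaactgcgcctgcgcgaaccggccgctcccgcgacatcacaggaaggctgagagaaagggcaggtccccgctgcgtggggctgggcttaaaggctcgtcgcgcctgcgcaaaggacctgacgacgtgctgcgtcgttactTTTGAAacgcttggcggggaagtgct
CENPA (chr2:26785806-26786105, plus strand): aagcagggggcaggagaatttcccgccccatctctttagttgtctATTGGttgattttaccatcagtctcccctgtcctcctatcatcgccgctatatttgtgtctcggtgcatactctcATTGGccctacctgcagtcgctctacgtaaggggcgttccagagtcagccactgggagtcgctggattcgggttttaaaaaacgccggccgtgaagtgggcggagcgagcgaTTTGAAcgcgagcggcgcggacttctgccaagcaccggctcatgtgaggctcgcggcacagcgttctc
NCAPH (chr2:96335516-96335815, plus strand): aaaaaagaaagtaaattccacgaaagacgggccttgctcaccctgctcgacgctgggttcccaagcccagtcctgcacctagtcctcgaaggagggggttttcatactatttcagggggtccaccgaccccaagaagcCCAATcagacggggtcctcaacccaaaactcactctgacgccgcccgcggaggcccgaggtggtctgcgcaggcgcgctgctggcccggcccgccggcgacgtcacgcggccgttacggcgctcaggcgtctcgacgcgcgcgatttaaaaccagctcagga
CKS1B held 5 CCAAT matches, from 231 to 54 bases before the start, and 1 CHR match 30 bases before it. In SPC25 a CHR match lay 3 bases and another 247 bases before the start, with CCAAT at 88 and 56 bases. CENPA had CHR 18 bases before the start and CCAAT at 205 and 130 bases. In MAD2L1 the CHR letters lay after the start and CCAAT 229 bases before it. LMNB1 and NCAPH had CCAAT, 138 and 112 bases before the start, and no CHR letters in the windows printed, and the other LMNB1 window held neither. A match is only a match of letters in these windows.

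The 4 slides carried 42184 to 42308 values per scan, with medians between 0.0046 and 0.017. Across all features, Pearson's r was 0.67 between MB452 pools and 0.40 between control pools, and it lay between 0.38 and 0.61 for pairs of unlike pools. Control pool A with MB452 pool A (r = 0.61) or MB452 pool B (0.50) was more alike than the 2 control pools. So was control pool B with MB452 pool A (0.45), while control pool B with MB452 pool B was lowest (0.38). The most frequent exact value of a scan was shared by 310 to 397 spots (low scans) or 1201 to 1534 spots (high scans). These spots were taken as saturated, with no flag or intensity read, and none of the 95 mitotic features was among them. Spot intensities were not analysed, so the brightness behind each ratio is unknown. Ratios to a reference of the same cells give no level, so the enterocyte label could not be checked by level. Of 14 epithelial and enterocyte markers, 7 had a feature that was saturated in the high scan of all 4 slides. None of the 14 passed the threshold (none at an unadjusted p under 0.05 in limma), against 0.868% of all genes called lower and 1.04% higher. Changes were negative for 11, against 54.6% of all genes, and the median log2 fold change of the markers was -0.070. Saturated features carry 1 repeated value in a scan, so their sign there comes from that value. CDH1 and EPCAM, for instance, had the same change (-0.13). The 7 markers with no saturated feature were therefore also read alone, a choice made after the values were seen. All 7 had negative changes, against 54.6% of all genes, with a median of -0.061. Their median log2 ratios were -0.12 and -0.027 in MB452 pools and -0.0079 and 0.063 in control pools. The part of this marker shift in the mitotic values was not tested.

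After 10 hours with L. plantarum MB452, LMNB1, BIRC5, CKS1B, SPC25, MAD2L1, CENPA, NCAPH, CDKN3, HMMR and CCNB1 fell in Caco-2 cells past the threshold, a fold change over 1.2 with an unadjusted p under 0.05 in limma. These were 10 of 52 genes (19.2%), against 0.868% of all genes tested that were called lower. No mitotic gene was called higher, against 1.04% of all genes. The 10 changes lay between -0.52 and -0.28 on the log2 scale. After Benjamini-Hochberg adjustment over all 17969 genes none of them passed 0.05, with a lowest adjusted p of 0.637 in limma, and no gene of the whole array passed it either (lowest adjusted p = 0.176). At an unadjusted p under 0.05 from limma with no fold minimum, 22 of the 52 genes passed, all of them lower. Over all genes, 608 (3.38%) passed as lower and 558 (3.11%) as higher.

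Most genes short of the threshold had the same sign. Log2 fold changes were negative for 50 of 52 genes, against 54.6% of all genes, and only NEK2 (0.0033) and ECT2 (0.011) were above 0. The median over the 52 genes was -0.13, beside -0.0093 over all genes, and it was -0.15 in the high scans and -0.12 in the low scans. Median log2 ratios to the reference were -0.034 and -0.073 in MB452 pools, against 0.092 and 0.091 in control pools. For 35 of 52 genes (67.3%) both MB452 pools lay below both control pools, against 19.5% of all genes. For 30 of these this was so in each scan, against 1757 of all 17969 genes. No gene had both MB452 pools above both control pools, against 17.6% of all genes, and the groups overlapped for 17. MB452 pool B was the lower of the MB452 pools for 38 of 52 genes. Genes that rise together in cycling cells are not independent observations, so these counts describe 4 pools.

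**Figure D1:**
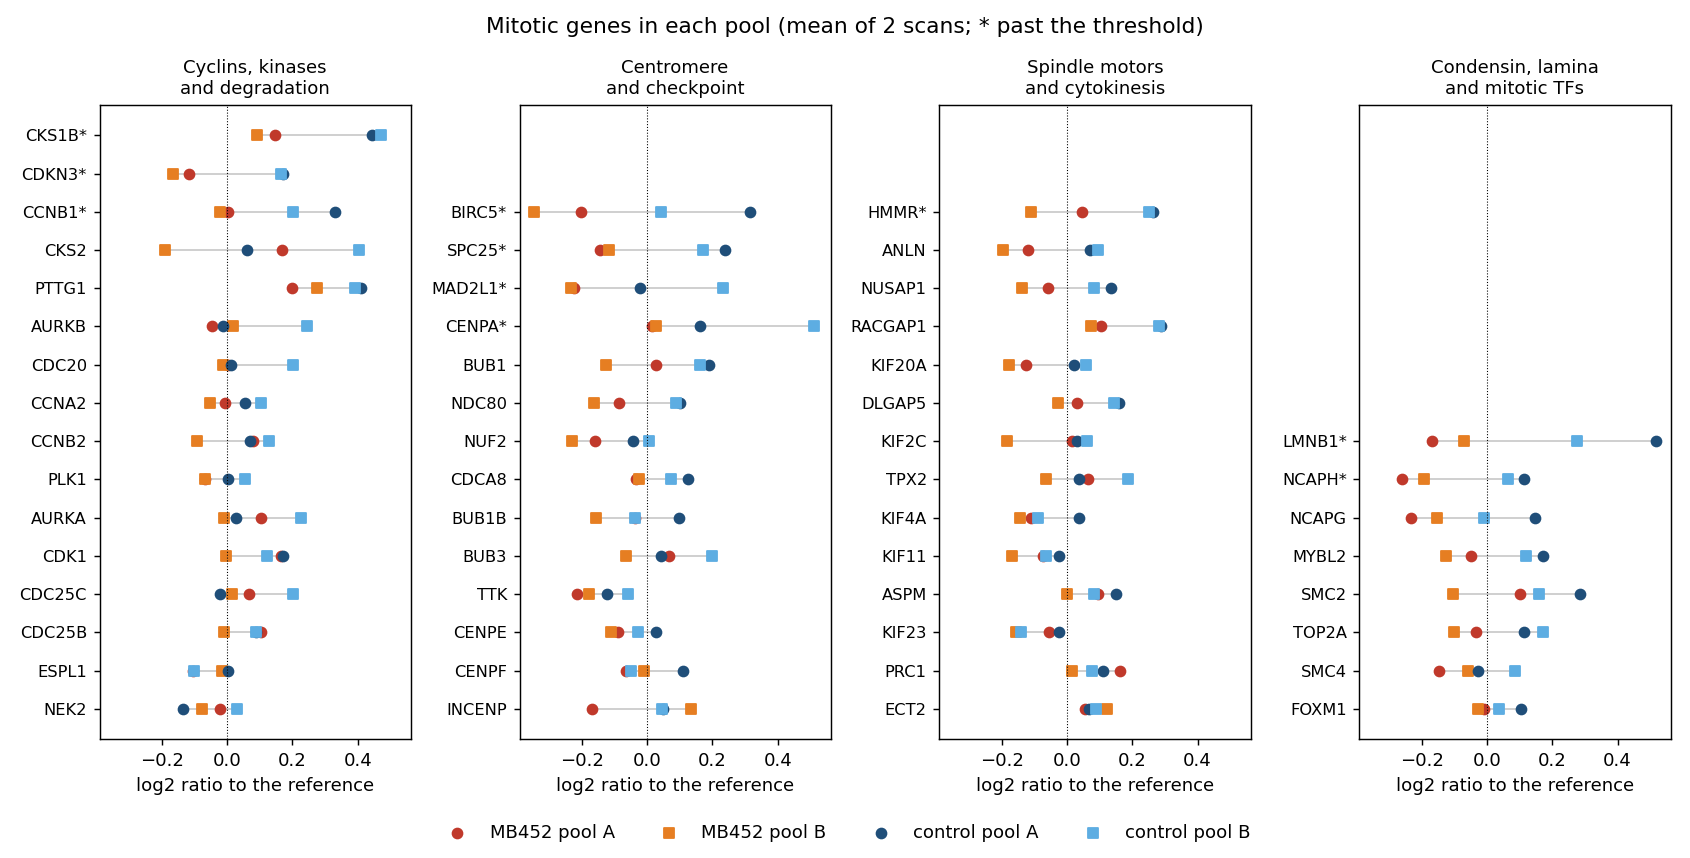
Log2 ratio to the reference (horizontal axis, mean of the 2 scans) of the 52 mitotic genes in each pool, by class, with genes ordered by their change; red circles and orange squares are MB452 pools A and B, dark and light blue are control pools A and B, and an asterisk marks a gene past the threshold. For 35 genes both MB452 pools lie left of both control pools, against 19.5% of all genes. Among the 35 are all 8 of the condensin, lamina and transcription factor class.

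Among condensin, lamina and mitotic transcription factors, all 8 genes were lower in both MB452 pools than in both control pools, in each scan. This was so for 1757 of all 17969 genes. LMNB1 and NCAPH passed the threshold, 2 of 8 (25%), against 0.868% of all genes called lower. The class median was -0.23, with -0.27 in the high scans and -0.20 in the low scans. LMNB1, which encodes lamin B1, had the largest change of the 52 genes and ranked 25th lowest of all 17969. Its log2 ratio was -0.17 and -0.070 in MB452 pools, against 0.52 and 0.28 in control pools. The high scan gave -0.13 and -0.023 in MB452 pools and 0.51 and 0.23 in control pools, and the low scan gave -0.20 and -0.12 in MB452 pools and 0.53 and 0.32 in control pools. Control pool A was the highest in either scan, and the groups stayed apart in both. The log2 fold change was -0.52 ± 0.097 (SE), a ratio of 0.699, with an unadjusted p of 0.00272 and an adjusted p of 0.637 in limma.

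NCAPH, a regulatory subunit of condensin I, was at -0.26 and -0.19 in MB452 pools, against 0.11 and 0.065 in control pools. High-scan values of NCAPH were -0.27 and -0.19 in MB452 pools and 0.10 and 0.043 in control pools, and low-scan values were -0.25 and -0.20 in MB452 pools and 0.13 and 0.086 in control pools. The scans gave nearly the same values for this gene, with a log2 fold change of -0.32 ± 0.059 (SE). NCAPG, another condensin I subunit, changed by -0.26 ± 0.076 (SE), just short of the fold minimum, which is 0.263 on the log2 scale. Its values were -0.26 and -0.15 in MB452 pools and 0.18 and 0.016 in control pools in the high scan, and -0.21 and -0.15 in MB452 pools and 0.11 and -0.037 in control pools in the low scan. MYBL2, the B-MYB transcription factor of late cell cycle genes, stood at -0.054 and -0.11 in MB452 pools and 0.25 and 0.19 in control pools in the high scan. The low scan of MYBL2 gave -0.042 and -0.14 in MB452 pools and 0.089 and 0.047 in control pools, a smaller difference. Over both scans its log2 fold change was -0.23 ± 0.061 (SE), under the fold minimum.

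The other 4 genes of the class had log2 fold changes of -0.22 (SMC2) and -0.13 (SMC4), the ATPase core of condensin, -0.21 (TOP2A, the DNA topoisomerase that untangles sister chromatids) and -0.087 (FOXM1, a forkhead activator of mitotic genes). The class count was 4 in the high scans, 4 without control pool B and 4 without MB452 pool A. LMNB1 and NCAPH themselves were called with any single pool left out, where LMNB1 lay between -0.64 and -0.39.

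In the centromere and checkpoint class, BIRC5, SPC25, MAD2L1 and CENPA fell, 4 of 14 genes (28.6%), against 0.868% of all genes called lower. All 14 genes had negative log2 fold changes, against 54.6% of all genes. The class median was -0.15 (-0.19 in the high scans and -0.13 in the low scans). For 11 genes both MB452 pools lay below both control pools, against 19.5% of all genes. BIRC5 encodes survivin, the chromosomal passenger subunit that brings Aurora B to the centromere. BIRC5 was at -0.20 and -0.35 in MB452 pools, against 0.31 and 0.044 in control pools. By scan, the high values were -0.081 and -0.30 in MB452 pools and 0.44 and 0.11 in control pools, and the low values were -0.33 and -0.39 in MB452 pools and 0.18 and -0.019 in control pools. All 4 pools read lower in the low scan, but the difference between groups was close in both, -0.47 and -0.44. BIRC5 changed by -0.45 ± 0.11 (SE), and without MB452 pool B it was -0.38 and no longer called.

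SPC25 and NDC80 are subunits of the kinetochore complex that grips spindle microtubules. SPC25 was at -0.15 and -0.12 in MB452 pools, against 0.24 and 0.17 in control pools. Its high scan gave -0.099 and -0.15 in MB452 pools and 0.21 and 0.22 in control pools, and its low scan -0.19 and -0.084 in MB452 pools and 0.27 and 0.12 in control pools. The groups were apart in both scans and the change, -0.34 ± 0.058 (SE), was called with any single pool left out. NDC80 was not called as a gene (-0.22 ± 0.059, SE), but 1 of its 2 features was, at -0.42, while the other stood at -0.021. NUF2, the partner of NDC80 in the complex, had -0.17.

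MAD2L1, the checkpoint protein that binds CDC20, stood at -0.23 and -0.23 in MB452 pools, against -0.021 and 0.23 in control pools. MAD2L1 gave -0.19 and -0.22 in MB452 pools and 0.021 and 0.25 in control pools in the high scan, and -0.27 and -0.25 in MB452 pools and -0.063 and 0.21 in control pools in the low scan. The MB452 pools were alike and the control pools were spread, and the change was -0.33 ± 0.095 (SE). CENPA, the histone H3 variant of centromeres, showed the same spread, with 0.015 and 0.026 in MB452 pools, against 0.16 and 0.51 in control pools. High-scan CENPA was 0.024 and 0.036 in MB452 pools and 0.14 and 0.47 in control pools, and low-scan CENPA was 0.0065 and 0.016 in MB452 pools and 0.18 and 0.56 in control pools. The difference was -0.32 ± 0.12 (SE) with all pools and -0.14 without control pool B. MAD2L1 (-0.21 without control pool B) and CENPA were called in 1 of the 4 fits with a pool left out, that without control pool A. The class count was 2 without control pool B and, with BIRC5 lost as well, 1 without MB452 pool B.

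Of the checkpoint kinases and their partners, BUB1 changed by -0.23, BUB1B by -0.13, BUB3 by -0.12 and TTK (MPS1) by -0.10, none past the threshold. The remaining passenger genes were also short of it, CDCA8 (borealin) at -0.13 and INCENP at -0.065. CENPE, the kinetochore kinesin, was measured by 10 features that lay between -0.17 and -0.017, and CENPF, a kinetochore protein, averaged -0.069.

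**Figure D2:**
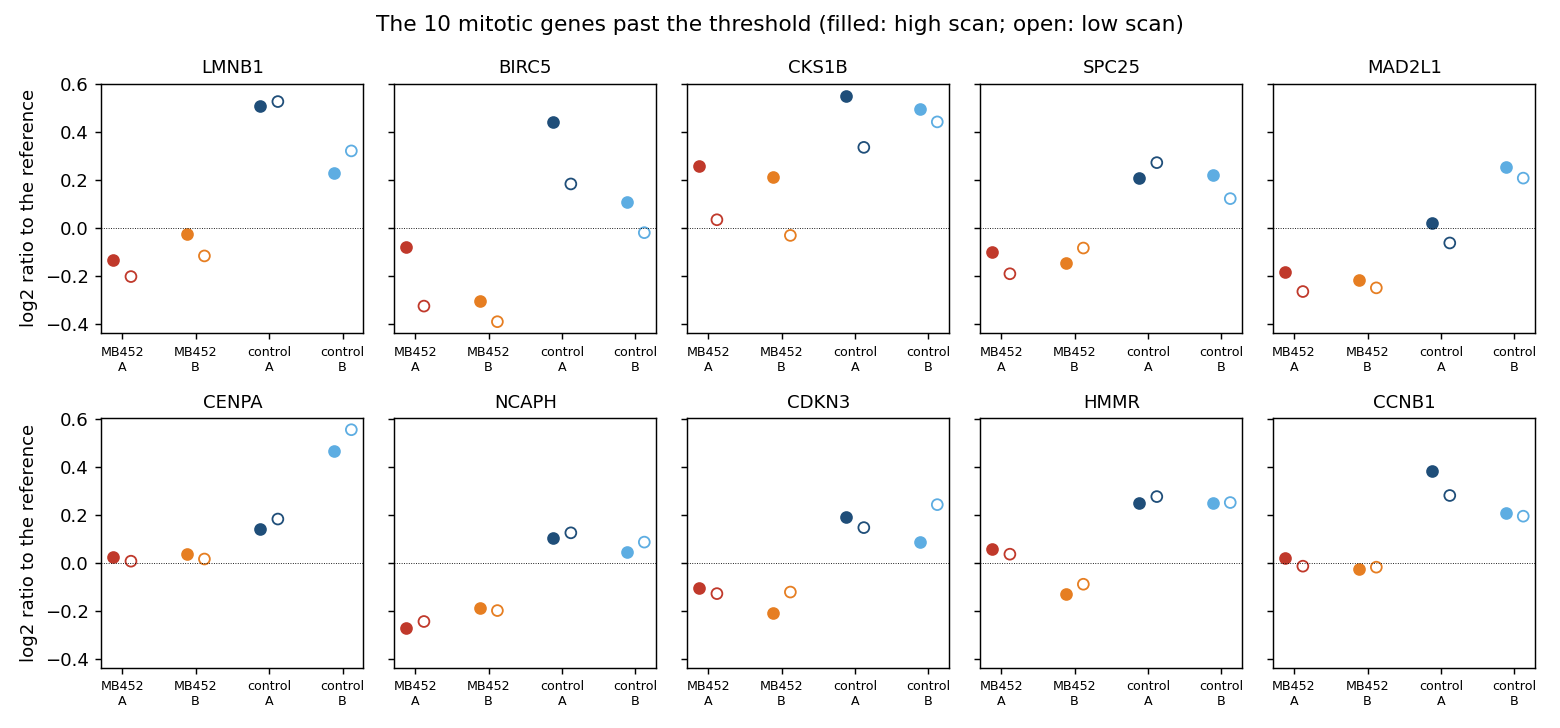
Log2 ratio to the reference (vertical axis) of the 10 genes past the threshold in each pool, filled for the high scan and open for the low scan, in red and orange for MB452 pools A and B and in dark and light blue for control pools A and B. In all 10 genes both MB452 pools lie below both control pools within each scan, and CENPA and MAD2L1 show control pool B well above control pool A.

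In the class of cyclins, kinases and degradation, CKS1B, CDKN3 and CCNB1 fell, 3 of 16 measured genes (18.8%), against 0.868% of all genes. The class median was -0.11 (-0.11 in the high scans and -0.10 in the low scans). Changes were negative for 15 genes, against 54.6% of all genes. The groups were apart, with MB452 lower, for 7, against 19.5% of all genes. The median was -0.071 without control pool B and -0.16 without control pool A. CKS1B is a small subunit of cyclin-dependent kinases that the SCF ubiquitin ligase needs to recognise p27. It stood at 0.15 and 0.090 in MB452 pools, against 0.44 and 0.47 in control pools. Its high scan gave 0.26 and 0.21 in MB452 pools and 0.55 and 0.50 in control pools, and its low scan 0.034 and -0.031 in MB452 pools and 0.34 and 0.44 in control pools. All 3 features of CKS1B were called lower, at -0.36 to -0.32, the only gene of the set with more than 1 called feature. The gene changed by -0.34 ± 0.057 (SE).

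CDKN3, a phosphatase that acts on cyclin-dependent kinases, was at -0.12 and -0.17 in MB452 pools, against 0.17 and 0.17 in control pools. CDKN3 values in the high scan were -0.10 and -0.21 in MB452 pools and 0.19 and 0.087 in control pools, and in the low scan -0.13 and -0.12 in MB452 pools and 0.15 and 0.24 in control pools. The control pools swapped order between scans and never reached the MB452 pools, and the change was -0.31 ± 0.056 (SE). CCNB1, cyclin B1, was at 0.0019 and -0.022 in MB452 pools, against 0.33 and 0.20 in control pools. CCNB1 gave 0.018 and -0.026 in MB452 pools and 0.38 and 0.21 in control pools in the high scan, and -0.014 and -0.018 in MB452 pools and 0.28 and 0.19 in control pools in the low scan. Its change of -0.28 ± 0.067 (SE) lay just past the fold minimum and was not called without control pool A (-0.21), without MB452 pool B (-0.26) or in the low scans alone (-0.25). CKS2, the paralog of CKS1B, differed by -0.24 ± 0.16 (SE) and was not called. Its difference was -0.072 without control pool B and -0.065 without MB452 pool B, against -0.41 without control pool A, where it was called, and -0.42 without MB452 pool A, where it was not. CKS2 was at 0.37 and -0.16 in MB452 pools and 0.10 and 0.49 in control pools in the high scan, and at -0.035 and -0.22 in MB452 pools and 0.018 and 0.32 in control pools in the low scan. MB452 pool A and control pool B stood high for this gene in the high scan, and the groups overlapped there.

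No mitotic kinase of the class was called. CDK1, the kinase that cyclin B1 activates, averaged -0.066 over 2 features of opposite sign (-0.16 and 0.030), and neither was called. PLK1 was at -0.096, AURKA at -0.080 and AURKB at -0.13, and NEK2, a centrosomal kinase, at 0.0033. The other cyclins were CCNA2, with 10 features between -0.21 and -0.0041, and CCNB2 at -0.11. CDC25B (-0.041) and CDC25C (-0.049), the phosphatases that activate CDK1, differed by less than their standard errors of 0.064 and 0.088. In the degradation arm, securin (PTTG1) was at -0.16, CDC20, the activator of the anaphase-promoting complex, at -0.11, and separase (ESPL1) at -0.012. None of these 12 genes was called, and PTTG1 was the only one at an unadjusted p under 0.05.

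Among spindle motors and cytokinesis genes, HMMR was the only one called, 1 of 14 (7.14%), against 0.868% of all genes called lower. The class median was -0.12 (-0.12 in the high scans and -0.11 in the low scans). Changes were negative for 13 genes, against 54.6% of all genes. For 9, both MB452 pools lay below both control pools, against 19.5% of all genes. Without MB452 pool B the median was -0.066, and without MB452 pool A it was -0.18. HMMR encodes a spindle assembly protein that also binds hyaluronan. HMMR was at 0.046 and -0.11 in MB452 pools, against 0.26 and 0.25 in control pools. By scan it gave 0.057 and -0.13 in MB452 pools and 0.25 and 0.25 in control pools (high), and 0.036 and -0.090 in MB452 pools and 0.28 and 0.25 in control pools (low). The control pools were close together and the MB452 pools were not. The change was -0.29 ± 0.072 (SE) with all pools and -0.21, not called, without MB452 pool B, when no gene of the class was called. In the low scans alone, and without MB452 pool A, 2 genes of the class were called.

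ANLN, anillin of the contractile ring, changed by -0.24 ± 0.059 (SE). Anillin values were -0.076 and -0.22 in MB452 pools and 0.0084 and 0.11 in control pools in the high scan, and -0.16 and -0.17 in MB452 pools and 0.13 and 0.072 in control pools in the low scan. NUSAP1, which bundles spindle microtubules, changed by -0.21 ± 0.061 (SE). NUSAP1 was at -0.0027 and -0.19 in MB452 pools and 0.11 and 0.0057 in control pools in the high scan, and at -0.12 and -0.083 in MB452 pools and 0.16 and 0.16 in control pools in the low scan. The margin between groups was narrow in the high scan. RACGAP1, part of centralspindlin, changed by -0.20 ± 0.054 (SE). RACGAP1 stood at 0.092 and 0.078 in MB452 pools and 0.28 and 0.29 in control pools in the high scan, and at 0.11 and 0.070 in MB452 pools and 0.29 and 0.28 in control pools in the low scan. Of these 3 genes RACGAP1 had the most even pools, and none reached the fold minimum.

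Kinesins of the class ranged widely. KIF20A, a kinesin of the central spindle, was measured by 10 features, all negative (-0.30 to -0.13), 1 of which was called, and the gene averaged -0.19. KIF2C was at -0.13, KIF4A at -0.10, KIF11, the bipolar spindle motor, at -0.076, and KIF23, the motor of centralspindlin, at -0.022. The spindle factors DLGAP5 (-0.15), TPX2 (-0.11) and ASPM (-0.069) were not called, and neither were PRC1 (-0.0047), a central spindle bundler, and ECT2 (0.011), the RhoA activator of cytokinesis. The 3 features of ECT2 ran between -0.10 and 0.12.

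Genes with several features show how far a value depends on the feature. For CDK1, CCNB2 and BUB3 the features were annotated to 2 different transcript records, so they are not all repeats of 1 target. Of the 52 genes, 16 had more than 1 feature and 36 rested on a single one, among them LMNB1, BIRC5, SPC25, MAD2L1, CENPA, NCAPH, CDKN3, HMMR and CCNB1. Features of 4 genes had both signs. NDC80 and KIF20A were the 2 genes with a called feature and no call of their own. Over all features, 0.8% were called lower and 1.3% higher.

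**Figure D3:**
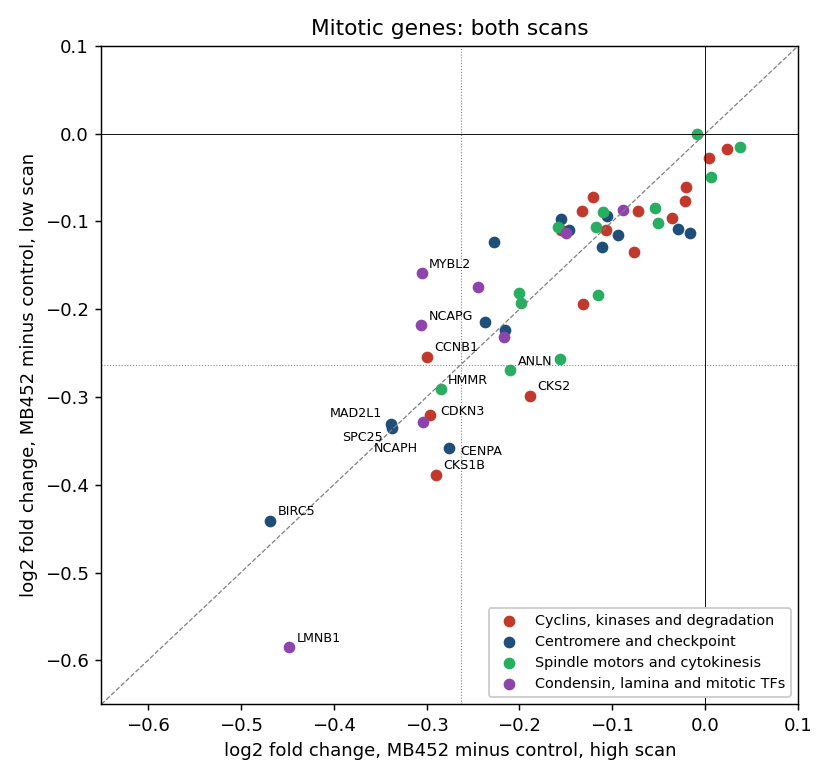
Log2 fold change (MB452 minus control) of each of the 52 mitotic genes in the high scans (horizontal axis) and the low scans (vertical axis), coloured by class; the dashed line marks equal values and the dotted lines the 1.2-fold minimum. Values were negative in the high scans for 48 genes, in the low scans for 51 and in both for 47; LMNB1 and BIRC5 lie farthest from 0.

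Both scans read the same hybridised slide, so they share its RNA and its dyes and are not replicates. The high scans alone called 11 of the 52 genes lower, and the low scans alone 10. MYBL2 and NCAPG joined in the high scans and ANLN in the low scans, while CENPA was lost in the high scans (-0.28, against -0.36 in the low scans) and CCNB1 in the low scans.

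Of the 10 called genes, 5 kept their call whichever single pool was left out, namely LMNB1, NCAPH, CDKN3, CKS1B and SPC25. The count of called genes fell without MB452 pool B and rose without MB452 pool A, and the share of all genes called shifted as well. The median over the 52 genes was -0.12 without MB452 pool B and -0.18 without MB452 pool A. It was -0.15 without control pool B and -0.18 without control pool A. Without control pool A, 10 were called, but the share of all genes called lower was then 7.43% (1335 genes), and for 3 of the mitotic genes the adjusted p from limma was under 0.05 (lowest 0.017). A lone pool is assumed there to vary like the other group.

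**Figure D4:**
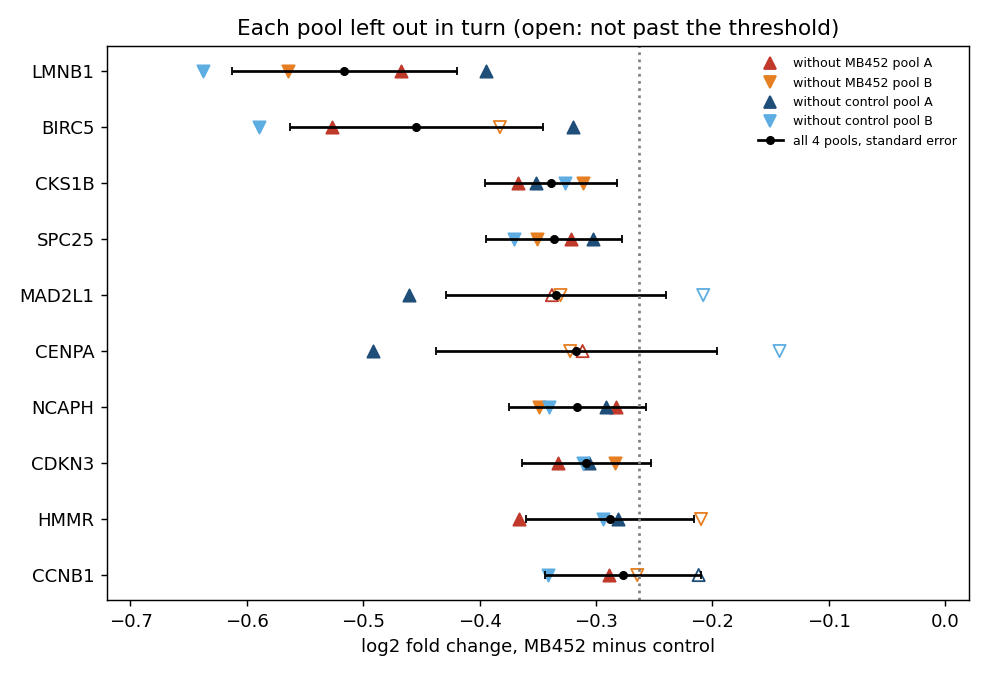
Log2 fold change (MB452 minus control, horizontal axis) of the 10 genes past the threshold with all 4 pools (black, with standard error) and with each pool left out (triangles, open where the gene is not past the threshold); the dotted line marks the 1.2-fold minimum. All estimates are below 0, as they must be with both MB452 pools below both control pools. CENPA moves most, to -0.14 without control pool B and -0.49 without control pool A.

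CHR letters were in windows of 6 of the 9 called genes with a window and of 28 of the 36 uncalled genes with one, and CCAAT in 9 of 9 and 26 of 36. LMNB1, NCAPH and CCNB1 were called and had no CHR letters in these windows.

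Related genes outside the set were read from lists of the same pathways. Of 138 further mitotic genes measured, 6 were called lower and 1 higher, 4.35% lower against 0.868% of all genes, with a median log2 fold change of -0.048. STMN1, the microtubule destabiliser stathmin, was at 0.27 and 0.041 in MB452 pools, against 0.62 and 0.54 in control pools, a change of -0.42 ± 0.093 (SE). OIP5, part of the Mis18 complex that helps load CENPA, was at -0.14 and -0.15 in MB452 pools, against 0.23 and 0.26 in control pools (-0.39 ± 0.054, SE). The mitotic kinase PBK changed by -0.35, the kinetochore protein CENPW by -0.34, the lamin B receptor LBR by -0.29, and sororin (CDCA5), which protects cohesin, by -0.26. STMN1 and LBR were not called when both scans were fitted as arrays with a random block for the slide. PLK2, a stress-inducible relative of PLK1, was the gene called higher, at -0.099 and 0.14 in MB452 pools, against -0.36 and -0.17 in control pools (0.28 ± 0.11, SE). By list, the calls were 2 of 39 further cyclins, kinases and anaphase-promoting complex genes (PBK, PLK2), 3 of 44 of the centromere, kinetochore and cohesin (OIP5, CENPW, CDCA5), 1 of 31 of the spindle and cytokinesis (STMN1) and 1 of 24 of condensin, lamina and nuclear envelope (LBR). The list counts shifted when single pools were left out. Such fits leave a lone pool in its group, and the share of all genes called shifted as well.

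Genes of DNA replication peak earlier in the cycle. Of 42 measured, 7 were called lower (16.7%, against 0.868% of all genes) and none higher (against 1.04%). Changes were negative for 38 of them (90.5%, against 54.6% of all genes), with a median of -0.15, beside -0.0093 over all genes. PCNA, the sliding clamp of DNA polymerases, was at 0.011 and -0.022 in MB452 pools, against 0.79 and 0.32 in control pools, a change of -0.56 ± 0.16 (SE). TYMS, thymidylate synthase, was at 0.32 and 0.041 in MB452 pools, against 0.62 and 0.49 in control pools (-0.37 ± 0.11, SE). GINS2 of the replicative helicase (-0.34) and thymidine kinase TK1 (-0.33) were also called, with RFC4, RFC5 and RRM2. The count shifted with single pools left out, as did the share of all genes called. Control pool A was the highest pool for PCNA, as it was for LMNB1.

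Among 21 inhibitors of cyclin-dependent kinases and DREAM complex genes, none passed the threshold in limma, against 0.868% of all genes called lower and 1.04% higher. None had an unadjusted p under 0.05 in limma, against 3.38% of all genes lower and 3.11% higher. In a list of 21 genes, a count of 0 is near these shares. The median was 0.011, with 10 negative and 11 positive, against 54.6% of all genes negative. Some passed the threshold when a pool was left out, but such fits leave a lone pool in its group. The share of all genes called shifted as well.

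**Figure D5:**
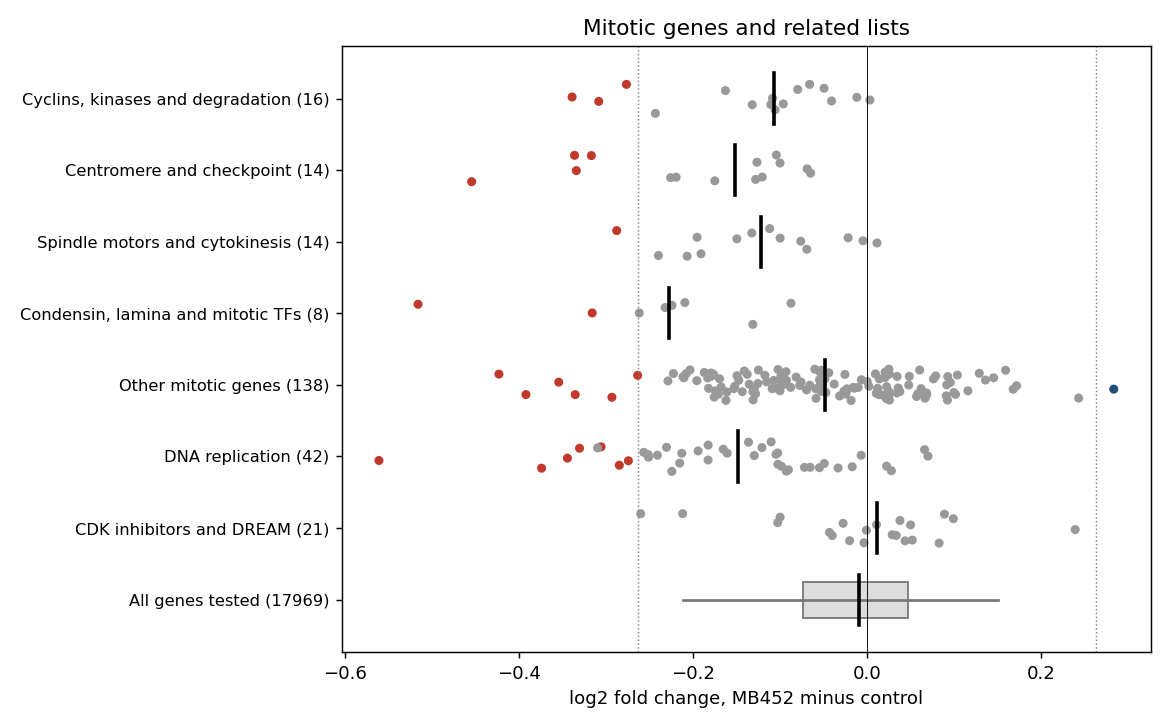
Log2 fold change (MB452 minus control, horizontal axis) of each gene in the 4 mitotic classes, the further mitotic genes, DNA replication genes, and inhibitors of cyclin-dependent kinases with DREAM genes, with the number measured in brackets; red points were called lower, the blue point higher and grey points neither, bars are medians, and the bottom box spans the quartiles of all genes with whiskers from the 5th to the 95th percentile. The medians of the 4 classes lie between -0.23 and -0.11, left of the median of all genes (-0.0093).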

How the data were processed

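Total RNA from pools of Caco-2 wells was labelled in Cy5 and hybridised with the Cy3 reference on 2-colour Agilent whole human genome arrays. The authors quantified each scan, removed poor spots, used no background correction and normalised the ratios by loess, and limma is listed, without a version, in the submitters' processing notes. The deposited table holds these ratios in 8 columns (4 slides, 2 scans each), taken here to be log2 as limma writes them after the authors' loess step. No source used here states their log base. The table holds no authors' comparisons, and all 8 columns were used.

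Columns were centred on their median and the scans of a slide averaged. Features lacking a value on any of the 4 slides were dropped, which left 42142, named by the platform annotation (29033 of 44290 features had 1 symbol, 97 several and 15160 none), and averaged by gene. MB452 was compared with control by lmFit and eBayes (limma 3.58.1, R 4.3.3), with a call at a fold change over 1.2 and an unadjusted p under 0.05, as in the study's methods, and Benjamini-Hochberg adjustment over all genes beside it. The code was tested on simulated data. No p was computed over a list of genes.

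The genes, classes and further lists were chosen with earlier results of these data known. Values by pool and scan are given for every called gene of the set and for the 4 largest changes of each class. Called genes of the further lists are named with their change, some with pool values. Alternatives covered scan, scaling, saturated spots, missing values, variance model, threshold, pool and feature choice. The pool letters A and B were not used as pairs.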

Additional observations from a re-analysis of the deposited data

How the results depend on the processing

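The count of 10 mitotic genes called lower was 10 or 11 with either scan alone, a random block for the slide, no centring, quantile scaling, complete features, saturated values removed, robust eBayes and the most variable feature of a gene, and no mitotic gene was called higher in any of the 16 alternatives. In the settings just named, 0.813% to 1.33% of all genes were called lower. The count was 22 with no fold minimum, where 3.38% of all genes were called lower. With a fold change over 1.5 it was 0, where 0.0223% of all genes were called lower. With a pool left out, the median log2 fold change of the 52 genes ran from -0.18 to -0.12. CENPA was not called in the high scans alone, after quantile scaling (-0.25) or with the most variable feature. The lowest adjusted p of the mitotic genes in limma was 0.0801 with a random block for the slide and lay between 0.017 and 0.999 with a pool left out. With the pool letter as a replicate block the count was again 10. Over all features, the differences between A and B in the 2 groups correlated at r = -0.016. This value cannot decide whether the letters pair the pools, and no source used here says what the letters stand for.

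The centromere and checkpoint median was -0.19 in the high scans and -0.20 to -0.14 with a pool left out. With a pool left out the cyclin and kinase median was -0.16 to -0.071 and the spindle median -0.18 to -0.066. That of condensin, lamina and transcription factors was -0.27 in the high scans, -0.20 in the low scans, -0.25 after quantile scaling, and -0.27 to -0.18 with a pool left out. No class median and none of the 10 called genes changed sign in any alternative. With single scans and left-out pools the 10 genes could not change sign, since both MB452 pools lay below both control pools in each scan. Genes near 0 did change sign. ESPL1 (0.0039) and KIF23 (0.0063) were positive in the high scans, and NEK2 (-0.017) and ECT2 (-0.015) negative in the low scans. The number of negative genes ran from 47 to 51.

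For the further lists, counts with no fold minimum were 4 (cyclins and kinases), 10 (centromere), 5 (spindle), 2 (condensin and lamina) and 12 (DNA replication), and each was 0 with a fold change over 1.5. Over all genes, 3.38% were called lower and 3.11% higher with no fold minimum, and 0.0223% and 0.0167% with a fold change over 1.5. In the high scans the cyclin count was 1 and the condensin and lamina count 0. With a random block for the slide the spindle and the condensin and lamina counts were 0, and with the most variable feature condensin and lamina had 2. With a pool left out the counts ran from 1 to 4 (cyclins and kinases), 2 to 6 (centromere), 1 to 3 (spindle), 0 to 1 (condensin and lamina), 0 to 2 (inhibitors and DREAM) and 3 to 13 (DNA replication). The share of all genes called in these fits ran from 1.02% (without MB452 pool B) to 7.43% (without control pool A) for lower. For higher it ran from 1.06% to 1.95% in the same 2 fits. Each such fit leaves a lone pool in its group, so these ranges were not read as results about the lists. The number of arrays limits the precision, and the causes of the shifts in the counts were not tested.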

Other observations

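Promoter letters were also counted outside the mitotic set, after the values were seen. Of 999 tested genes outside the set with both CHR and CCAAT letters in their windows, 13 (1.3%) were called lower and 13 (1.3%) higher, with a median log2 fold change of -0.0081. Of all 14138 genes outside the set with a window, 0.877% were called lower and 1.1% higher, with a median of -0.0091.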
